A study of Mus musculus with 12 samples.

Results

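The genes described here are 8 that feed or finish DNA copying: Tk1, Tyms, Rrm1, Rrm2 and Dut, which supply the nucleotides, and Pcna, Lig1 and Fen1, which work behind the replication fork. They were chosen with earlier results of these data known, and their probes were found by gene symbol: 23 of the 45281 probes on the array carry one of these symbols in the platform annotation. Every probe was kept separate and numbered within its gene from the brightest to the dimmest. Of the 23 probes, 20 were tested and belong to all 8 genes. The other 3 (Tk1 probes 3 and 4 and Rrm1 probe 3) had a detection p-value of 0.05 or more on each of the 12 arrays and carry no measured level. The filter asked for detection on at least 3 arrays. Tk1 probe 2, Tyms probes 4 and 5, Rrm2 probes 2 and 3 and Lig1 probe 3 reached it only with the P0 tumor arrays. Rrm2 probe 2 was also detected on 2 P0 CP arrays, and the others on at most 1 other array. A P0 difference of these probes, or their fall in tumors from P0 to P21, thus follows in part from the filter.

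RNA came from the choroid plexus (CP), the tissue in the brain ventricles whose epithelium secretes cerebrospinal fluid. Tumors of the hindbrain CP were taken from mice of genotype Math1-cre;Rosa26-NICD1, in which Cre expressed from Math1 (Atoh1) sequences switches on the intracellular domain of Notch1, and the controls were CP of wild-type mice. All 4 groups had the C57BL/6 background. Tumor and wild-type CP were each taken at P0, the day of birth, and at P21, postnatal day 21, with 3 pooled samples, one array apiece, in every group. Each pool held tissue of several animals, so the spread between samples is that between pools. All 6 markers of CP epithelium on the array, Ttr, Kl, Folr1, Aqp1, Otx2 and Clic6, were detected on every array of every group. Atoh1 itself was detected on none. The P0 arrays lay on one BeadChip and the P21 arrays on another, with tumors in the same 3 positions of both, so age cannot be told apart from chip, nor genotype from position. Median raw signals were 134 to 179.9 per array, and 19043 to 23632 probes were detected. P21 tumor sample 1 stood apart in markers of neurons, with a summed linear signal of 20000 against 1760 and 1150 in the other P21 tumors and 1840 to 2320 in P21 CP. It also did for the oligodendrocyte lineage (7060, against 2440 and 2320, and 2260 to 2550 in CP) and granule neuron progenitors (8350, against 3890 and 4200, and 3210 to 3510 in CP). The P21 calls of the 8 genes are also given without this sample. In such bulk samples, fewer cells that express a gene and less RNA per cell cannot be told apart.

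As background, a dividing cell must raise its deoxynucleotide supply when it enters S phase. Ribonucleotide reductase, built of the large subunit Rrm1 and the small subunit Rrm2, makes deoxynucleotides from ribonucleotides. Dut removes dUTP and so yields dUMP, Tyms methylates dUMP to dTMP, and Tk1 recovers thymidine by phosphorylating it. Pcna forms a ring around DNA that holds the polymerases in place and recruits Fen1, the nuclease that trims the flap of each Okazaki fragment, and Lig1, the ligase that seals the remaining nick. Several of these genes are textbook targets of E2F transcription factors, and Pcna is widely used as a marker of proliferating cells.

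Genomic sequence upstream of 5 of the genes is shown because Tk1, Rrm2 and Fen1 rose in P0 tumors, Rrm1 did not pass and Pcna lay lower, as given further on. They were taken from RefSeq windows on GRCm38.p6 that run from 250 bases before to 50 bases after a start, and all 8 genes had a window. Capitals mark matches, on either strand, to an E2F core word (the word TTCCCGC, the word TTGGCGC, the word TTGCCGC or the word TTCGCGC) or to CCAAT. Each line runs 5′ to 3′ on the gene's strand and ends at the base before the start. The Rrm2 stretch is chr12:24708004-24708253 (plus strand) and that of Pcna chr2:132253181-132253430 (minus strand), each of 250 bases. Those of Rrm1, chr7:102441575-102441694 (plus strand), of Fen1, chr19:10203922-10204041 (minus strand), and of Tk1, chr11:117826015-117826134 (minus strand), have 120 bases.
Rrm2: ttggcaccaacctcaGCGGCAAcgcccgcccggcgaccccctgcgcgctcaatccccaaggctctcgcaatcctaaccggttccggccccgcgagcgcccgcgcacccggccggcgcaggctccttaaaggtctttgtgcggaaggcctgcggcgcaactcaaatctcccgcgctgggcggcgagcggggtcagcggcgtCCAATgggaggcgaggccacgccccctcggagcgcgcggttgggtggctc
Rrm1: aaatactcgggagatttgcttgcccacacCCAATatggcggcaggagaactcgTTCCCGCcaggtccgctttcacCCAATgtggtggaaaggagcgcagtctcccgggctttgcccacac
Fen1: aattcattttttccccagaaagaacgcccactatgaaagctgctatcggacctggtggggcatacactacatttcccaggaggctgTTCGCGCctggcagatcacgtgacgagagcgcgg
Tk1: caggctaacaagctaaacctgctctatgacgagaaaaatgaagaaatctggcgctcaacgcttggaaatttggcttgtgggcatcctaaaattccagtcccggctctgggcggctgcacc
Pcna: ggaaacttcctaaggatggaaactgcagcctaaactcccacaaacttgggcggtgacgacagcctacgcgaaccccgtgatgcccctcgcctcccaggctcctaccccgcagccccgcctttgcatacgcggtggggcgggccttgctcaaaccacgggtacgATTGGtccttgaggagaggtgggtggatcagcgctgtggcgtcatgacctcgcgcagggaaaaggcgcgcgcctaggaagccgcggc
An E2F word lay in a window of Rrm2, Rrm1, Fen1 and Lig1, 4 of the 8 genes, against 10.9% of the 27025 genes with a window. Fen1 and Lig1 had several windows and so more places to match. By window, 5 of the 11 windows of the 8 genes held such a word, against 9.57% of all windows. The Fen1 stretch shown lies in its window 2, and its other window held no E2F word. In Lig1 the matches lay after the start and are not shown. The windows of Tk1, Tyms, Dut and Pcna held none of these words. CCAAT, found in some window of 41.1% of genes, lay before the starts of Rrm1, Rrm2 and Pcna. These matches describe letters and are not evidence of binding.

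In the P0 tumors, 5 of the 8 genes were higher than in wild-type CP of the same age. Among them were Tk1 and Tyms, which form thymidylate, and Fen1 and Lig1, which finish Okazaki fragments. No rise passed for Rrm1, Dut or Pcna. Tk1, Tyms, Rrm2, Lig1 and Fen1 each had at least 1 probe that rose (adjusted p under 0.05). The rises of their brightest probes were 9.21-fold for Tk1, 3.49-fold for Tyms, 3.59-fold for Rrm2, 2.85-fold for Lig1 and 2.30-fold for Fen1. In all, 11 of the 20 probes passed, all of them higher, where 9.08% of all 20021 probes tested passed in either direction and 4.12% were higher. The groups did not overlap, in either direction, for 14 of the 20 probes, against 22.8% of all probes. The 14 include Pcna, for which the tumors lay lower. The median difference was 1.05 on the log2 scale, against -0.02 over all probes. These counts describe the probes that passed the detection filter and support nothing further. Of the 11, Tk1 probe 2, Tyms probe 4, Rrm2 probe 2 and Lig1 probe 3 are among the filter-dependent probes named above. Of the 14, so is Tyms probe 5 as well. Among the 7 probes detected on all 12 arrays, 3 passed (those of Tyms, Lig1 and Fen1). The count of 11 was 7 without P0 tumor sample 3, and 9 or 10 without any other single sample.

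Tk1 had the largest difference of the 8 genes. Its brightest probe read 11.30, 9.70 and 10.91 (normalized log2 signal) in the P0 tumors and 7.38, 7.12 and 7.79 in P0 CP. All 3 tumors lay above all 3 controls by at least 1.91, and tumor sample 2 was the lowest of its group. The difference was 3.20 ± 0.40 (log2, SE, n = 3 against 3; limma adjusted p = 0.000434), and this probe ranked 26 of 20021 by size of rise. At P21 the same probe read 5.92, 6.83 and 7.16 in tumors and 5.54, 5.24 and 5.27 in CP, where it was not detected on any array. Tumors were again above controls without overlap, at least 1.84-fold when the dimmest detected signal stands in for the controls (limma adjusted p = 0.0482). Without P21 tumor sample 1 the difference was 1.65 and still passed. The call was lost in 13 of the 22 other settings, among them without P21 tumor sample 2 (1.19, limma adjusted p = 0.154) or sample 3 (1.03, 0.162). It was lost as well without P0 tumor sample 3, P0 CP sample 2 or 3, or any one of the P21 CP samples, without background correction (0.50, 0.339) and with the authors' normalized values (0.56, 0.265). Tk1 probe 2 was detected on the P0 tumor arrays alone, at 7.61, 5.74 and 6.92, at least 1.94-fold above P0 CP (limma adjusted p = 0.0217). This second call was lost without P0 tumor sample 1 (0.0699), tumor sample 3 (0.0851) or CP sample 2 (0.0549).

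Tyms carried 5 probes, and they did not move alike. The brightest read 11.50, 9.88 and 11.29 in P0 tumors and 8.91, 9.07 and 9.30 in P0 CP, again with tumor sample 2 lowest but above every control. Its difference was 1.80 ± 0.36 (log2, SE; limma adjusted p = 0.00893). At P21 the same probe read 8.38, 9.05 and 9.08 in tumors and 9.26, 9.13 and 9.23 in CP, so that the 3 tumors lay just below the 3 controls, and the difference of -0.37 did not pass (limma adjusted p = 0.58). Probes 3 and 4 passed at P0 with 0.90 (limma adjusted p = 0.0397) and at least 1.40-fold (0.0487), calls that were lost without 9 and 11 of the 12 arrays in turn. Probe 4 was detected on the P0 tumor arrays and 1 other array. Probe 2 differed by 1.25 with overlapping groups and did not pass (0.0734), although it did without P0 tumor sample 2 (1.81, limma adjusted p = 0.00242). Probe 5, detected on the P0 tumor arrays alone, was at least 1.03-fold higher there and did not pass (0.266). A probe annotated to the Tyms pseudogene Tyms-ps followed Tyms probe 1 over the 12 arrays (r = 0.94). It differed by 1.45 ± 0.46 at P0 (limma adjusted p = 0.0702), and signal from the gene and from this near copy cannot be told apart here.

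Of the subunits of ribonucleotide reductase, Rrm2 rose at P0 and Rrm1 did not pass. Rrm2 probe 1 read 9.10, 8.86 and 9.25 in P0 tumors and 7.40, 7.01 and 7.26 in P0 CP, with a gap of 1.45 between the groups. Its difference was 1.84 ± 0.22 (log2, SE; limma adjusted p = 0.000292), and it passed in each of the 22 other settings in which it was tested. Rrm2 probe 2 read 8.52, 8.46 and 8.42 in P0 tumors and 5.56, 6.58 and 6.75 in P0 CP. The tumors lay close together and all above the controls, by 2.17 ± 0.28 (limma adjusted p = 0.000591). This probe reached the detection filter only with the P0 tumor arrays. Rrm2 probe 3, detected on the P0 tumor arrays alone, was at least 1.36-fold higher and did not pass (0.168), although it did without P0 tumor sample 2 (limma adjusted p = 0.00837). Rrm1 probe 1 read 9.85, 10.42 and 9.69 in P0 tumors and 9.62, 8.93 and 9.001 in P0 CP. Those groups did not overlap, but the closest tumor and control differed by only 0.08. The difference of Rrm1 probe 1, 0.80 ± 0.26, did not pass (limma adjusted p = 0.0749). It passed without P0 CP sample 1 (1.02, 0.031), with cyclic loess (0.0493) and with the authors' values (0.0492). Rrm1 probe 2 gave 0.64 (0.166) with overlapping groups. At P21 no probe of either subunit passed between tumor and CP. The Rrm1 probes differed by 0.19 and 0.08, Rrm2 probe 1 was detected in 2 of the 3 tumors and in no CP, and Rrm2 probes 2 and 3 were not detected on any P21 array.

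**Figure D1:**
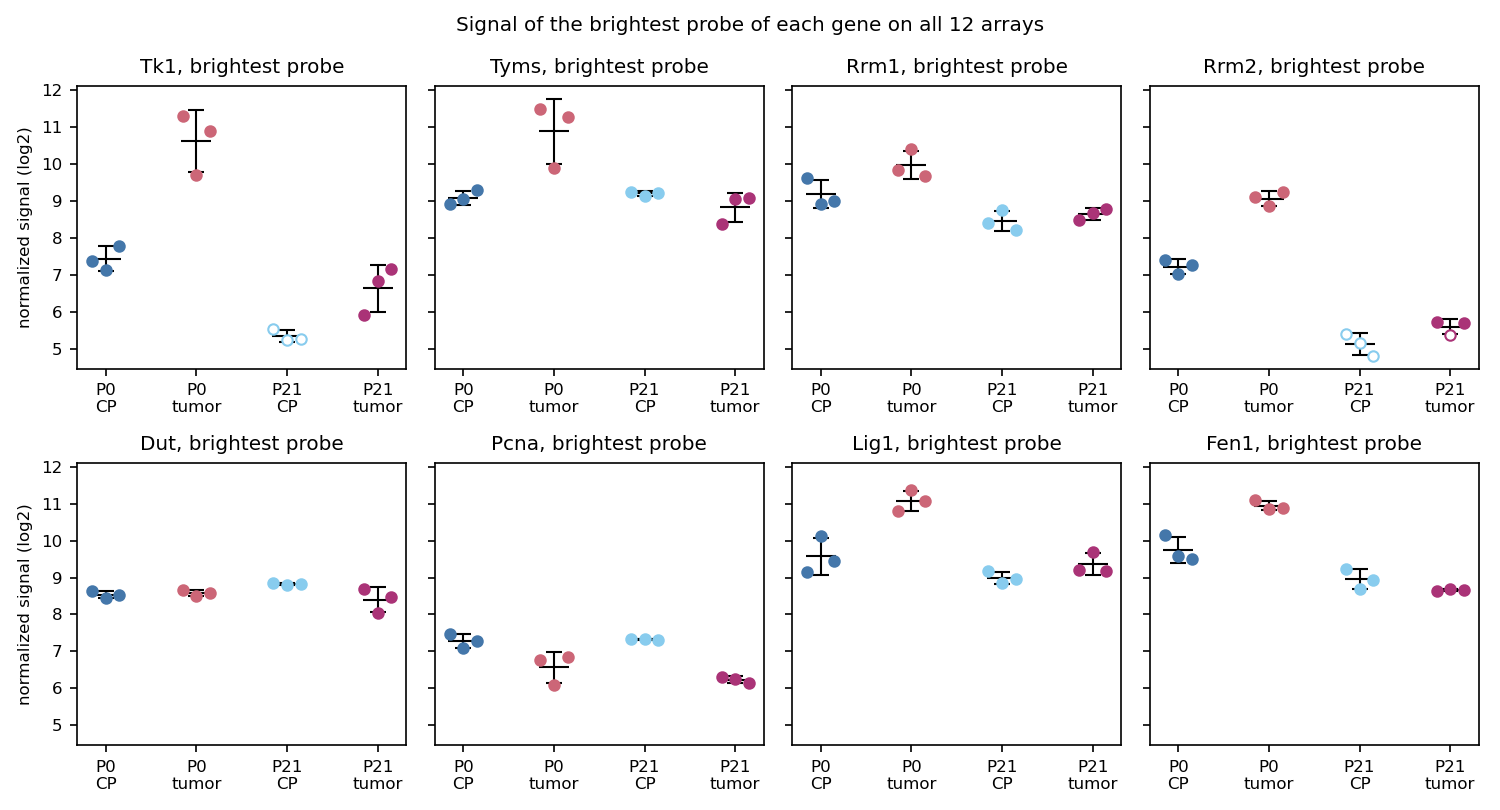
Normalized log2 signal of the brightest probe of each gene in wild-type CP and tumor at P0 and P21 (1 point per array, open where the probe was not detected, bar and whiskers the mean and SD of 3 arrays). P0 tumors stand above all other groups for Tk1, Tyms, Rrm1, Rrm2, Lig1 and Fen1, while the Pcna points of tumors lie below those of CP at both ages, a difference that passed at P21 only. Levels of different probes are not comparable with each other.

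Among the enzymes that finish the lagging strand, Fen1 read 11.09, 10.86 and 10.89 in P0 tumors and 10.14, 9.60 and 9.49 in P0 CP. The groups were 0.72 apart at their closest, and the difference was 1.202 ± 0.22 (log2, SE; limma adjusted p = 0.00485). Lig1 probe 1 read 10.82, 11.37 and 11.07 against 9.14, 10.13 and 9.45, without overlap, a difference of 1.51 ± 0.27 (limma adjusted p = 0.00452) that passed in all 23 other settings. Lig1 probe 2 read 8.39, 8.89 and 8.60 in P0 tumors and 4.73, 7.29 and 7.24 in P0 CP. Here CP sample 1, where the probe was not detected, stood far below the other controls. The difference of 2.21 (0.0213) became 1.36 without CP sample 1, and the call was lost without P0 tumor sample 1 (0.0503), 2 (0.0574) or 3 (0.0702). Lig1 probe 3, detected on the P0 tumor arrays and 1 other array, was at least 1.99-fold higher than in P0 CP (limma adjusted p = 0.00765), and this call was lost with the 6 P0 arrays fitted alone (0.0585). Lig1 probe 4 went the other way by -0.36 and did not pass (0.363). It was detected on 1 of the 3 P0 tumor arrays and 2 of the 3 P0 CP arrays. At P21 none of the Lig1 and Fen1 probes passed, and the differences of Fen1 and of Lig1 probes 1, 2 and 4 lay between -0.35 and 0.37.

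For Dut, the dUTP hydrolase, no difference between tumor and CP passed. Dut probe 1 read 8.66, 8.51 and 8.59 in P0 tumors and 8.64, 8.44 and 8.53 in P0 CP. The groups overlapped, and the 95% interval of the difference ran from -0.38 to 0.48 around 0.05 (limma adjusted p = 0.92). At P21 Dut probe 1 read 8.70, 8.03 and 8.47 in tumors and 8.85, 8.79 and 8.84 in CP. All 3 tumors lay below the controls, and the difference of -0.43 did not pass (limma adjusted p = 0.189). Dut probe 2 spread widely within groups, from 5.31 to 7.0 in P0 CP, and differed by 0.30 at P0 (0.696).

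The probe annotated to Pcna, the sliding clamp, fell in P21 tumors. It is the only Pcna probe on the array, and which transcript it binds was not checked here. It read 6.31, 6.25 and 6.14 in P21 tumors and 7.34, 7.33 and 7.32 in P21 CP. The 3 tumors lay at least 1.01 below every control, and each group was tight (SD 0.09 and 0.01). The difference was -1.10 ± 0.22 (log2, SE; 95% interval -1.58 to -0.62; limma adjusted p = 0.0047), or 2.14-fold lower. This fall passed in each of the 23 other settings, in which it ran from -1.13 to -0.51. Without P21 tumor sample 1 it was -1.13. The smaller values came without background correction (-0.51) and with the authors' normalized values (-0.55). Raw signals, before any correction, were 186.9 to 209.5 in P21 tumors and 220.6 to 244.6 in P21 CP, also without overlap. The array medians were 134 to 179.9.

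At P0 the Pcna probe read 6.76, 6.08 and 6.85 in tumors and 7.46, 7.08 and 7.28 in CP. The tumors again lay below all controls, with sample 2 lowest in both groups, but the difference of -0.71 ± 0.22 did not pass (95% interval -1.19 to -0.23; limma adjusted p = 0.066). It passed in 1 of the 23 other settings, with the mean of all probes per gene (0.0486). Raw Pcna signals overlapped at P0, 188.6 to 259.7 in tumors against 224.6 to 260 in CP. The tumor effects on Pcna at P21 and at P0 differed by -0.39 ± 0.31 (limma adjusted p = 0.634). Ordered by mean, Pcna was highest in P21 CP (7.33) and P0 CP (7.28), which overlapped, then P0 tumor (6.56) and P21 tumor (6.23), which overlapped too. Across 20021 probes the P21 fall of Pcna ranked 814 and the P0 difference 1847 from the most negative.

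**Figure D2:**
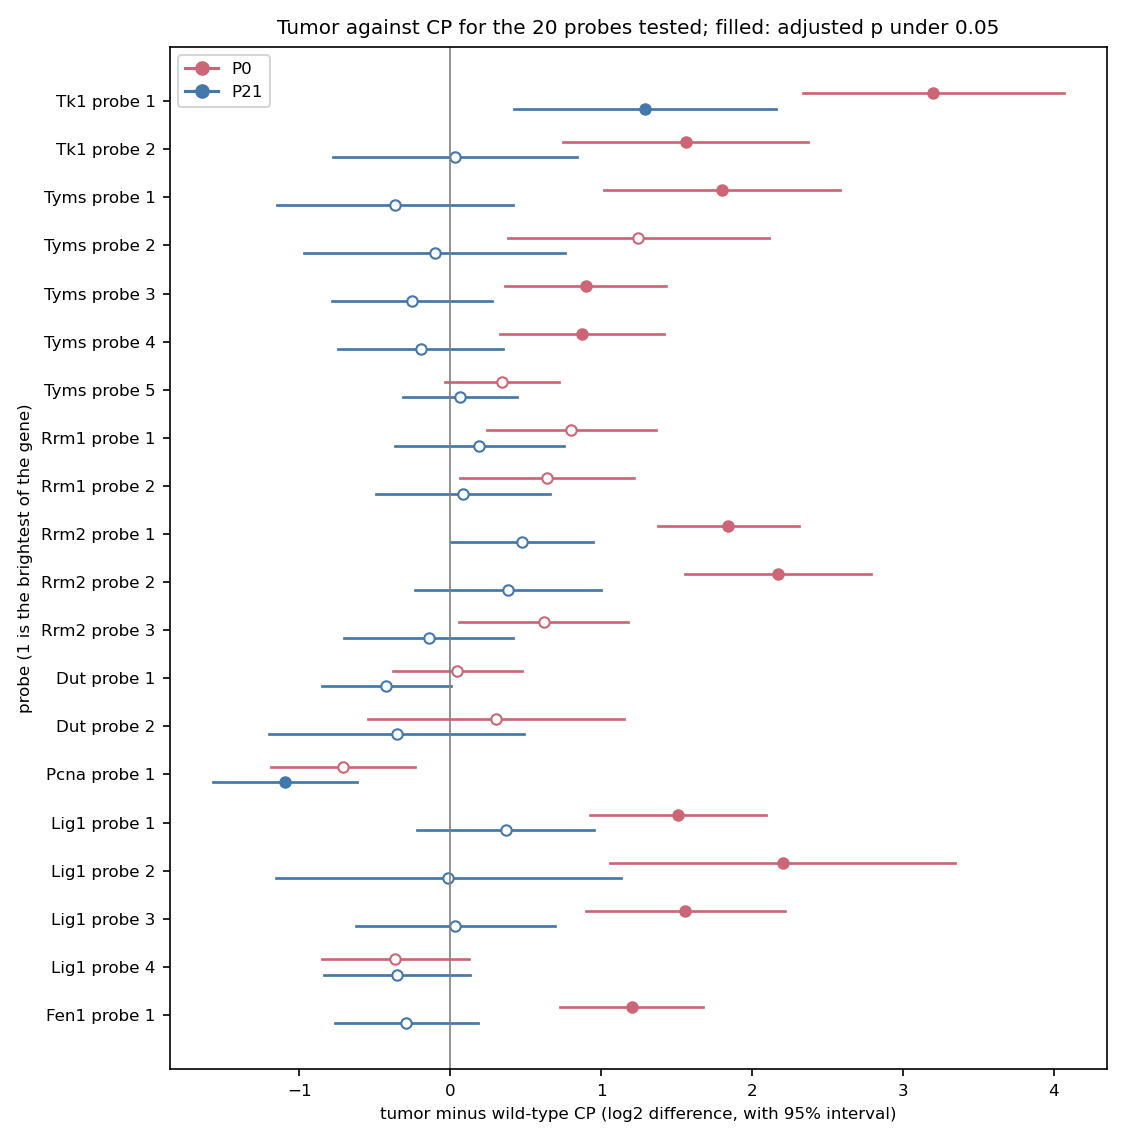
Tumor minus wild-type CP in log2 units for each of the 20 probes tested, with 95% intervals, at P0 and at P21. Filled points passed at an adjusted p under 0.05: 11 probes at P0, all to the right of 0, and 2 at P21, Tk1 probe 1 to the right and Pcna to the left. Tk1 probe 2, Tyms probe 5 and Rrm2 probes 2 and 3 were not detected on any P21 array, so their P21 points are not measured differences, and P0 points of probes not detected in P0 CP are differences from background signal.

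Only 2 of the 20 probes thus passed between tumor and CP at P21, Tk1 probe 1 higher and Pcna lower, against 14.8% of all probes in either direction, 8.4% higher and 6.42% lower. Without P21 tumor sample 1 the count was again 2. Of all P21 calls 56.7% were higher, and 73% with median scaling. The P21 groups did not overlap for 6 of the 20 probes, below the 42.9% of all probes. The median difference of the 20 probes was -0.06, against -0.07 over all probes. A direct test of the tumor effect at P21 minus that at P0 gave 4 probes, all with the smaller effect at P21, where 1.07% of all probes passed in that direction. They were Tyms probe 1 (-2.17 ± 0.51, limma adjusted p = 0.0384), Rrm2 probe 1 (-1.37 ± 0.31, 0.0304), Rrm2 probe 2 (-1.79 ± 0.40, 0.0307) and Fen1 (-1.49 ± 0.31, 0.0203). Rrm2 probe 2 was not detected on any P21 array, so no P21 effect was measured for it and its value mainly restates the P0 difference, and Rrm2 probe 1 was not detected in P21 CP. The count of 4 is unstable. It was 9 without P0 tumor sample 2, and 0 without P0 tumor sample 3, without P21 tumor sample 2 or without P21 CP sample 1. It was 1 without P0 tumor sample 1, P0 CP sample 3, P21 CP sample 2 or P21 CP sample 3, and 2 without P21 tumor sample 1 or 3.

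Between the ages, probes of these genes fell in wild-type CP and in tumors. These comparisons share no arrays, but they share the chips, the normalization and the estimate of spread. In CP, 5 of the 20 probes fell from P0 to P21, against 9.85% of all probes that were lower, and the ages did not overlap for 9 of 20, against 39.2%. Tk1 probe 1 fell at least 3.20-fold (limma adjusted p = 0.00375; 0.0651 without background correction) and Rrm2 probe 1 at least 2.77-fold (6.1e-05), each from detected at P0 to not detected on any P21 CP array. Rrm2 probe 2 fell at least 1.46-fold (0.00556), Rrm1 probe 2 by 0.84 ± 0.27 (log2, SE; limma adjusted p = 0.0481) and Fen1 by 0.79 ± 0.22 (0.0258). The count of 5 was 3 without P21 CP sample 2 or 3. The Fen1 call was lost without either of these (0.112 and 0.0806) or P0 CP sample 1 (0.0714), and the Rrm1 call without any of 9 single samples, P0 tumor samples 2 and 3 and P0 CP sample 2 being the exceptions. Pcna differed by 0.05 between P0 and P21 CP (95% interval -0.42 to 0.53). Lig1 probe 2 differed by 0.04, but without P0 CP sample 1 by -0.80, which passed (0.0379). In tumors 16 of the 20 probes fell, against 8.13% of all probes, and 16 did not overlap, against 34.3%. The count was 15 without P21 tumor sample 1. The 16 belonged to Tk1, Tyms, Rrm1, Rrm2, Lig1 and Fen1. Of them, Tk1 probe 2, Tyms probes 4 and 5, Rrm2 probes 2 and 3 and Lig1 probe 3 passed the filter only with the P0 tumor arrays. Their falls follow in part from the filter, and of these only Lig1 probe 3 was detected on any P21 tumor array. Among the 7 probes detected on all 12 arrays, 5 fell in tumors. The falls in tumors were 15.98-fold for Tk1 probe 1, 11.1-fold for Rrm2 probe 1, 4.87-fold for Fen1, 4.15-fold for Tyms probe 1, 3.29-fold for Lig1 probe 1 and 2.52-fold for Rrm1 probe 1. Single samples ended 3 of the tumor calls: Tyms probe 2 and Lig1 probe 3 without P0 tumor sample 1 or 3 or P21 tumor sample 2, and Tyms probe 4 without P0 tumor sample 2 or 3 or P21 tumor sample 1 or 2. Neither Dut probe nor Pcna passed between the tumor ages, and Pcna differed by -0.33 (limma adjusted p = 0.36). Without P0 tumor sample 2, Pcna differed by -0.57 and passed (0.0455). Without both P0 samples of number 2, Pcna (-0.57, 0.0358) and Dut probe 2 (-1.04, 0.0201) passed. As age and BeadChip coincide, these differences cannot be told apart from a difference between chips.

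Over the 12 arrays, the brightest probes of Tk1, Tyms, Rrm1, Rrm2, Lig1 and Fen1 varied together, with Pearson correlations of 0.63 to 0.95. Dut and Pcna did not follow them. Dut correlated with these 6 genes at -0.285 to 0.056, Pcna at -0.415 to -0.002, and Dut with Pcna at 0.56. These values describe arrays that share group, chip and normalization. The genes most like the mean of the 7 members other than Pcna were Plk1 (0.98), Mad2l1, Cdc45, Uhrf1 and Aurka, all known from mitosis or DNA replication. The genes most like Pcna were others: Pcbp3 (0.98), Glrx3, Psmd6, Defb35 and Npc2. Those most opposed to it were Slit2 (-0.99), Unc13b, Pdzrn3, Mme and Rin2.

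**Figure D3:**
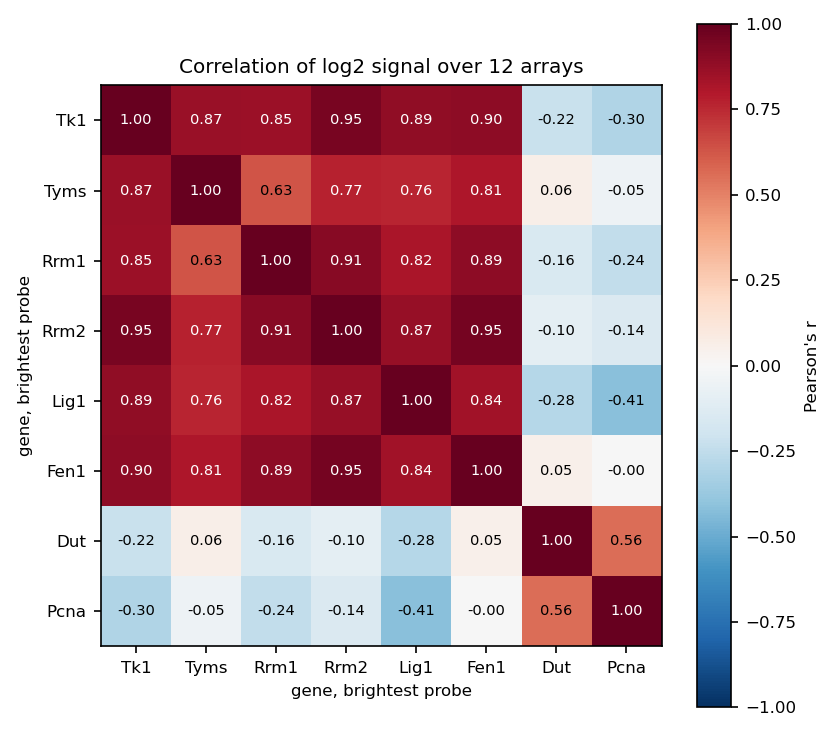
Pearson correlation of normalized log2 signal over the 12 arrays for each pair of genes, brightest probe each. The block of Tk1, Tyms, Rrm1, Rrm2, Lig1 and Fen1 lies at 0.63 or above, while Dut and Pcna correlate with each other at 0.56 and with that block between -0.415 and 0.056.

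Samples of a group differed in how often they were the lowest or highest of their 3. P0 tumor sample 2 was the lowest of its 3 for 12 of the 20 probes, among them both Tk1 probes, Tyms probes 1 and 2, Pcna and Fen1. Samples 1 and 3 were the lowest for 5 and 3. Sample 2 was the highest for 6, namely both Rrm1 probes, Lig1 probes 1 and 2 and Tyms probes 4 and 5, against 9 for sample 1 and 5 for sample 3. Raw signals show the same split: Tyms probe 1 read 3544, 1045 and 2517 in the 3 P0 tumors, and Rrm1 probe 2 read 1103, 1372 and 736.7. In P0 CP, samples 1, 2 and 3 were the lowest for 7, 9 and 4 probes and the highest for 10, 3 and 7. P21 tumor samples 1, 2 and 3 were the lowest for 10, 5 and 5 and the highest for 5, 4 and 11. P21 CP samples 1, 2 and 3 were the lowest for 5, 7 and 8 and the highest for 12, 7 and 1. With both P0 samples of number 2 left out, an alternative added after the data were seen, 11 of the 20 probes passed at P0, 2 at P21 and 8 in the difference between ages. The 11 were not the same probes as in the main fit. At P0, Tyms probes 3 (limma adjusted p = 0.0604) and 4 (0.16) were lost, and Tyms probe 2 (0.00758) and Rrm2 probe 3 (0.0188) gained.

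Other genes of the same routes were taken as lists, each gene by its brightest probe. Over all 12379 genes, 4.47% were higher and 5.46% lower in tumors at P0, and 9.91% higher and 6.66% lower at P21. The median difference over all genes was -0.06 at P0 and -0.05 at P21. Of 18 other Pcna-binding proteins tested, 9 rose and none fell in P0 tumors, with a median of 0.89. Pclaf, a small Pcna-associated factor, rose 6.37-fold (8.01 to 9.81 in tumors, 5.63 to 6.87 in CP) and Esco2, a cohesin acetyltransferase, 5.38-fold (8.70 to 9.41 and 6.25 to 6.76). The calls of Pclaf and Esco2 held in every setting tested. Rad18, also among the 9, was detected on 1 of the 3 P0 CP arrays. Its call (limma adjusted p = 0.043) was lost in 15 of the 22 other settings. At P21, 1 of the 18 rose and 1 fell, with a median of 0.01. Cdt1, which licenses replication origins, rose 2.37-fold (8.73 to 9.08 in tumors, 7.29 to 7.91 in CP). The chromatin assembly subunit Chaf1a fell 2.16-fold (7.79 to 8.20 in tumors, 8.999 to 9.22 in CP).

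Of 9 replicative polymerase and primase subunits, 4 rose at P0 (median 0.52), led by Pole at 4.20-fold and Pold1 at 2.61-fold, the catalytic subunits of polymerases epsilon and delta. The call of Pold3, also among the 4, was lost in 14 of the 23 other settings. Of the 8 genes that load or unload the clamp, 2 rose at P0 (median 0.69). They were Chtf18, 3.26-fold, a subunit of an alternative clamp loader, and Atad5, 2.09-fold, which serves to take Pcna off DNA. Chtf18 was detected on 2 of the 3 P0 CP arrays. Among 7 other Okazaki fragment enzymes, 1 rose, Parp1 at 1.83-fold (median 0.14). No gene of these 3 lists passed between tumor and CP at P21, where the medians were 0.18, -0.04 and -0.21.

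The remaining supply routes were mixed. Of 15 other deoxynucleotide and folate enzymes, 3 rose and 2 fell at P0 (median 0.54). The largest rises were those of the mitochondrial folate enzymes Mthfd2 (1.92-fold) and Shmt2 (1.87-fold). Cmpk1, a UMP and CMP kinase, fell 1.95-fold, and Rrm2b, the small reductase subunit of non-dividing cells, fell 1.79-fold. At P21, 2 of the 15 fell and none rose (median -0.16). Shmt1, the cytosolic serine hydroxymethyltransferase, was 1.94-fold lower at P21 but 1.85-fold higher at P0, a value singled out after it was seen, and the effects at the ages differed by -1.84 ± 0.32 (limma adjusted p = 0.00864). Mthfd1 fell 1.66-fold at P21. Of 18 genes of de novo purine and pyrimidine synthesis and the linked salvage steps, 2 rose and 4 fell at P0 (median 0.37). Gart (2.18-fold) and Ctps (2.02-fold) rose, while Paics (2.53-fold) and Ppat (2.24-fold) fell. Paics was detected on 2 of the 3 P0 tumor arrays. At P21, 3 of the 18 fell and none rose (median -0.13), with Ppat at 2.34-fold and Hprt at 2.18-fold the largest. Among 9 genes of nucleotide breakdown, Dpyd fell 2.39-fold at P0 and was the only one to pass (median -0.11). Dpyd was detected on only 1 of the 3 P0 tumor arrays, so the size of its fall is uncertain. At P21 Samhd1, which hydrolyses deoxynucleotides, rose 2.17-fold, and the phosphorylases Upp1 (2.89-fold) and Tymp (2.31-fold) fell (median -0.22). Leaving out P0 tumor sample 3 ended the P0 calls of Mthfd2, Shmt1, Shmt2, Rrm2b, Gart, Ctps, Paics and Dpyd, and P0 tumor sample 1 those of Shmt1, Shmt2, Rrm2b, Gart and Dpyd. P0 CP sample 1 did so for Shmt2, Rrm2b, Ctps and Dpyd, P0 CP sample 2 for Shmt1, Rrm2b and Ctps, P0 CP sample 3 for Shmt1, Rrm2b and Dpyd, and P0 tumor sample 2 for Shmt1 and Ctps. The Rrm2b call was also lost without P21 tumor sample 2 or 3 or any P21 CP sample. At P21, the Shmt1 call was lost without tumor sample 2 or 3 or CP sample 1 or 3, that of Mthfd1 without CP sample 2, and that of Upp1 without tumor sample 1 or CP sample 1.

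**Figure D4:**
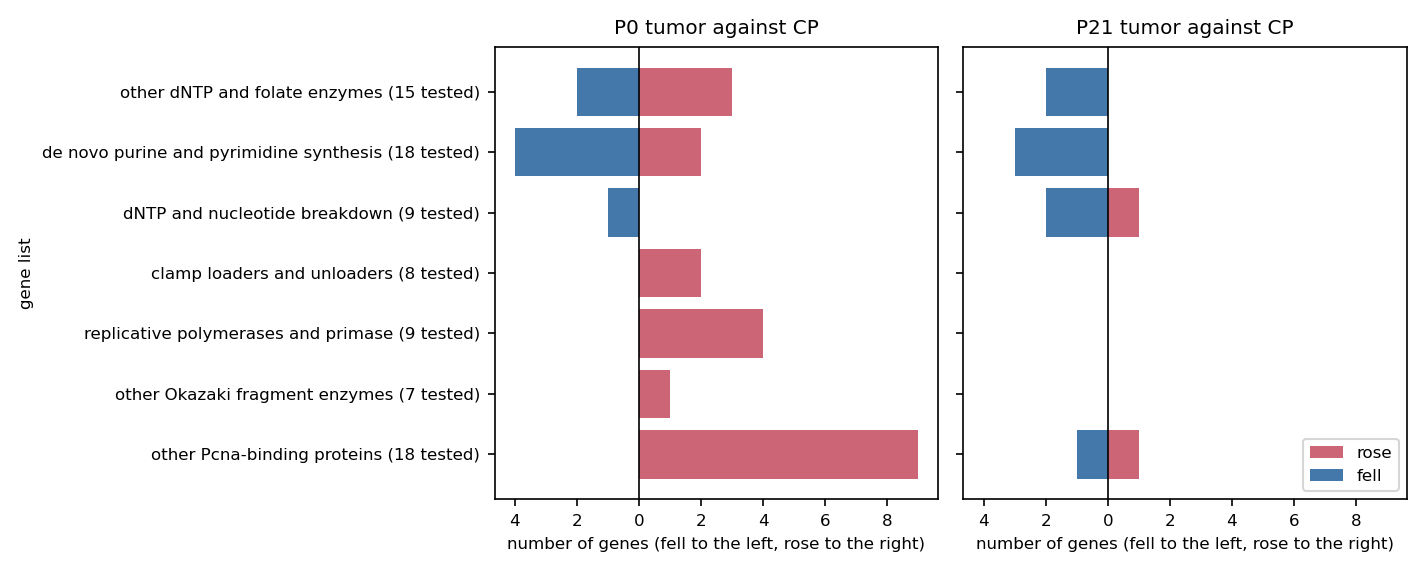
Number of genes of each list that rose (right) or fell (left) in tumor compared with wild-type CP, by age, at an adjusted p under 0.05, with the number of genes tested in brackets. At P0 the Pcna-binding proteins have 9 rises and no fall, and at P21 no list has more than 3 falls or 1 rise.

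Markers of proliferation were highest in P0 tumors, as were the 6 genes that varied together. Of the 6 markers tested, Top2a, Mcm2, Mcm5 and Mcm6 rose at P0 and Mcm5 alone at P21. The summed linear signal of the 8 such markers on the array was 17400 to 18900 in P0 tumors, 3660 to 5480 in P0 CP, 2350 to 3040 in P21 tumors and 1810 to 2050 in P21 CP, and Bub1 and Ccna2 were not detected in any group. At P0, 1 of 5 macrophage markers (Lyve1) and 1 of 5 pericyte and smooth muscle markers (Notch3) rose, and 1 of 6 CP epithelium markers (Aqp1) fell. Of 6 fibroblast markers, Col1a2 rose 1.99-fold and Pdgfra fell 1.73-fold at P0. Markers of other cells also differed at P21, where Pcna fell. Of 5 macrophage markers, 4 rose at P21, with sums of 3230 to 5000 in tumors and 1430 to 1510 in CP. Of 5 pericyte and smooth muscle markers, 2 rose, with sums of 13700 to 27200 against 2590 to 4840. They were Acta2 (8.14-fold, 13.53 to 14.60 in tumors) and Notch3 (3.3-fold, 8.44 to 9.38), and Acta2 made up most of the tumor sums. Pdgfrb, Rgs5 and Cspg4 did not pass. Of the 6 CP epithelium markers, 2 fell, with sums of 175000 to 184000 against 232000 to 237000. Of the 6 fibroblast markers, Col1a2 (7.75-fold) and Col1a1 (2.66-fold) rose and Pdgfra (1.81-fold) fell at P21, with sums of 19000 to 24100 against 21000 to 24300. Of 6 endothelial markers, Cldn5 rose 2.41-fold at P21, with sums of 3220 to 4260 against 1810 to 4160. No erythroid, granule neuron progenitor, neuron or oligodendrocyte marker tested passed at either age. The part of such cells in the values of the 8 genes was not tested.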

How the data were processed

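RNA of 12 pooled samples was measured on Illumina mouse BeadChips. The scanner table gives, per the file headers, each probe's mean bead intensity, linear and not normalized, with a detection p-value. Another deposited table holds the authors' normalized intensity (method not given in the sources used here), used as an alternative only.

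Signals were corrected by normexp (limma 3.58.1, R 4.3.3; negative controls inferred from the deposited detection p-values, offset 16), quantile normalized and put on a log2 scale. Tested probes had a detection p-value under 0.05 on at least 3 arrays and exactly 1 symbol in the platform annotation, updated through RefSeq names (20021 probes, 12379 genes). A limma model (lmFit, eBayes) with 4 group means used all 12 arrays. Its p-values are two-sided, rest on the spread between pools, which may be partly technical, and were adjusted by Benjamini-Hochberg over all 20021 probes of a comparison. With 3 arrays a group, precision is limited. The calculation was tested on simulated data with independent noise and planted shifts, which checks the code only. That simulation held no chip, position or pool effects and no detection floor. A bound ("at least N-fold"), used where a probe was detected on no array of a group, divides the brighter mean by that group's mean of whichever is higher on each array, the probe or the dimmest detected probe.

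The members, lists and tests were chosen with earlier results of these data known. The text names every probe of the 8 genes and, per list and age, up to 2 genes with the largest rise and 2 with the largest fall that passed. Likeness names the 5 genes with the highest or lowest Pearson correlation. Alternatives changed the background correction, normalization, filter, probe rule and arrays fitted, added a replicate block, and left out each sample.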

Additional observations from a re-analysis of the deposited data

Results flagged for a closer look

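For 4 probes the effect of tumor on signal differed between P21 and P0 by a direct test of that difference. The difference was -2.17 for Tyms probe 1 (limma adjusted p = 0.0384) and -1.37 for Rrm2 probe 1 (0.0304). It was -1.79 for Rrm2 probe 2 (0.0307) and -1.49 for Fen1 probe 1 (0.0203). All are log2 values with the smaller effect at P21. Rrm2 probe 2 was not detected on any P21 array, so its P21 effect was not measured and the value mainly restates the P0 difference. The calls were lost in 13 of 22 other settings for Tyms probe 1, 8 of 21 for Rrm2 probe 1, 8 of 19 for Rrm2 probe 2 and 6 of 22 for Fen1, and no sign changed.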

How the results depend on the processing

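Over single probes and genes, 2716 alternative values kept direction and side of the threshold, 242 lost a call, 35 gained one and 43 changed sign, none of these last in a result called as reported. Tk1 probe 1, Rrm2 probes 1 and 2 and Lig1 probe 1 at P0, and Pcna at P21, passed in every setting tested. Rrm2 probe 2, however, reached the detection filter only with the P0 tumor arrays. Tyms probe 1 and Fen1 at P0 were lost only with the 6 P0 arrays fitted alone. At P0 that fit called 4 of the 20 probes and 582 of all probes, against 11 and 1818. Fewer probes were tested with detection on all 12 arrays (3 of 7 passed at P0), the brightest probe per gene (5 of 8) or the mean of probes per gene (6 of 8). At P21, 1 probe passed without background correction, with cyclic loess, without the detection filter, with detection on all 12 arrays, with the mean of probes or with the authors' values, and 4669 of all probes passed with the 6 P21 arrays alone, against 2967. The difference between ages gave 2 probes with median scaling and 2 with detection on all 12 arrays (352 of all probes, against 634). In CP between ages, 3 passed without background correction, 2 with detection on all arrays and 3 by brightest probe. In tumors, these filters gave 5 of 7 with detection on all arrays, 6 of 8 by brightest probe and 6 of 8 by mean of probes. Other causes of these changes were not tested. Leaving out 1 sample at a time gave 7 to 10 probes at P0 (897 to 2202 of all probes), 1 to 2 at P21 (1851 to 3760), 0 to 9 in the difference between ages (340 to 830), 3 to 7 in CP (2109 to 4090) and 13 to 16 in tumors (2225 to 4241). Without both P0 samples of number 2, chosen after seeing the data, the counts were 11 (2375), 2 (3774), 8 (799), 7 (4622) and 17 (3875). The 11 at P0 were not the same probes as in the main fit. With median scaling the share of higher calls was 76.8% in the difference between ages, against 66.1%, and 63.8% between tumor ages, against 50.7%.

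Signs changed for these differences, none of which passed as reported; Tk1 probe 2 and Tyms probe 5 were not detected at P21. At P21, cyclic loess and median scaling gave -0.085 and -0.148 for Tk1 probe 2, -0.003 and -0.099 for Tyms probe 5, and 0.08 and 0.227 for Lig1 probe 2. Median scaling gave 0.001 for Tyms probe 2 and cyclic loess -0.005 for Lig1 probe 3. Leaving out single samples at P21 gave -0.076 to 0.105 for Tk1 probe 2, -0.279 to 0.034 for Tyms probe 2, -0.146 to 0.122 for Lig1 probe 2 and -0.153 to 0.145 for Lig1 probe 3. At P0 it gave -0.001 to 0.102 for Dut probe 1 and -0.169 to 0.677 for Dut probe 2. For Lig1 probe 4 it gave -0.156 to 0.201 in the difference between ages (-0.254 without both P0 samples of number 2) and -0.295 to 0.062 between tumor ages. In CP between ages it gave -0.167 to 0.163 for Tyms probe 3, -0.055 to 0.257 for Tyms probe 4, -0.552 to 0.293 for Dut probe 2, -0.041 to 0.15 for Pcna (-0.041 without both) and -0.802 to 0.475 for Lig1 probe 2, whose lowest value, without P0 CP sample 1, passed (adjusted p = 0.0379). There, the mean of probes gave -0.113 for Tyms, cyclic loess -0.042 for Tyms probe 3 and median scaling 0.007 for Dut probe 2. Lig1 probe 2 was at -0.009 without background correction, -0.114 with cyclic loess, -0.102 with median scaling and -0.02 with the authors' values.

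The replicate block called 11 probes at P0 (1892 of all), 2 at P21 (3224) and 4 in the difference between ages (679). The counts are equal but the probes are not: Tyms probe 4 was lost (0.0711) and Tyms probe 2 gained (0.0462) at P0, and Rrm2 probe 2 lost (0.0504) and Lig1 probe 3 gained (0.0442) in the difference between ages. Of the listed genes, Pold3 at P0 (0.0913) and Gmps at P21 (0.0522) were among those lost. Samples of the same number correlated in their deviations at 0.428, 0.45 and 0.076 at P0 and at -0.048, -0.046 and -0.135 at P21. At P0, tumor sample 1 with CP sample 2 gave -0.443, and tumor sample 2 with CP sample 1 gave -0.39. P0 samples 1 and 2 correlated best with their own number. P0 tumor and CP sample 3 did not (0.087 and 0.098 against 0.076), nor did the P21 samples. The sample labels do not say what a number marks, so the numbers were not taken as pairs in the main fit.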
